A study of Mus musculus with 2 samples.

Results

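The lipid handling genes described here are 10 genes of fatty acid uptake, lipid storage and cholesterol efflux: *Fabp4*, *Fabp5*, *Cd36*, *Lpl*, *Plin2*, *Apoe*, *Abca1*, *Abcg1*, *Pparg* and *Nr1h3*. They were chosen by name from 32285 genes listed in the count tables, and all 10 were detected on both days. The cells came from quadriceps of 14-week-old male wild-type (WT) C57BL/6J mice at 1 day and 3 days after intramuscular BaCl2, which kills myofibers. Each day was 1 library of mononuclear cells pooled from 5 mice. There are therefore no replicates, no test and no p-value, and the day cannot be told apart from the library. Uninjured muscle was not analysed here.

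Macrophages that clear dead fibers take in large amounts of membrane lipid. The scavenger receptor CD36 and lipoprotein lipase (LPL) supply fatty acids, and the fatty acid binding proteins FABP4 and FABP5 carry them inside the cell. Perilipin 2 (PLIN2) coats lipid droplets. Cholesterol leaves through the transporters ABCA1 and ABCG1 onto acceptors such as apolipoprotein E (APOE). The nuclear receptors PPARγ (*Pparg*) and LXRα (*Nr1h3*) are known to control many of these genes in macrophages.

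After the filters on UMIs (unique molecular identifiers, the counted molecules), genes and mitochondrial share, 6735 cells of day 1 and 4627 cells of day 3 remained, with medians of 9389 and 14548 UMIs. The mitochondrial limit removed 277 cells of day 1 and 1804 of day 3. No cell barcode was shared between the days, and the lists of possible barcodes differed in length (737280 and 6794880). The study's methods name a single chemistry for library construction, but give alternative versions of the chip kit. Whether the days differed in kit could not be settled here. In every ratio of day 3 over day 1 below, a difference in kit cannot be told apart from the day. Clusters were named from marker genes, with the markers and the 10 members left out of the genes used for clustering. Monocyte/macrophage-like cells numbered 2207 on day 1 and 1816 on day 3. All 8 markers, among them *Adgre1*, *Fcgr1*, *Csf1r*, *C1qa* and *Mrc1*, were raised in each of their 4 large clusters. Monocyte-like cells numbered 1190 and 425, neutrophil-like cells 2053 and 255, and fibroblast/FAP-like cells, which include fibro-adipogenic progenitors, 656 and 847. A cluster led by *H2-Aa* and *H2-Eb1* (476 and 443 cells) and one led by *Rsad2* and *Ifit3* (52 and 575 cells) stayed without a cell type name. They are called MHC class II-led and interferon-led. For the first, the dendritic cell list scored highest, but only *Flt3* and *Cd209a* of its 8 markers were raised. These 8 markers summed there to 396 CPM (UMIs per 1000000) on each day, against 3.49 and 2.40 CPM in monocyte/macrophage-like cells. For the second, the monocyte/macrophage list scored highest and all 8 markers were raised, but another list led. Endothelial-like cells numbered 82 and 24, satellite cell/myoblast-like cells 6 and 203, and T/NK-like cells 13 and 39. Classes are compared only with at least 50 cells on a day.

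On GRCm38, *Fabp5* (chr3:10012548-10016607) and *Fabp4* (chr3:10204088-10208576) lie close together on chromosome 3. *Abca1* (chr4:53030787-53159895) and *Plin2* (chr4:86648386-86670060) share chromosome 4. *Cd36* lies at chr5:17781690-17888801, *Lpl* at chr8:68880491-68907448, *Apoe* at chr7:19696109-19699188, *Abcg1* at chr17:31057675-31117988, *Pparg* at chr6:115360951-115490399 and *Nr1h3* at chr2:91184061-91202834. *Gm13783* has exons on the strand of *Nr1h3* that overlap its exons and is listed in the count tables as well, so the count of *Nr1h3* is uncertain to that extent. The RefSeq promoter table (GRCm38.p6) matched 6 of the 10 members with 11 start sites, and *Fabp4*, *Fabp5*, *Lpl* and *Abcg1* had no entry. The 250 bases upstream of the start are shown for 1 gene each of storage, uptake and efflux, which differed in their change between the days. They are *Plin2* (chr4:86670060-86670309), *Cd36* (chr5:17835897-17836146) and *Abca1* (chr4:53159896-53160145), all on the minus strand, and that of *Cd36* belongs to a start within the longer annotated gene. Capitals mark AGGTCA, the half-site that nuclear receptors are known to bind, in *Plin2* and *Cd36*, and CACGTG and TATAAA in *Abca1*, on either strand.
Plin2: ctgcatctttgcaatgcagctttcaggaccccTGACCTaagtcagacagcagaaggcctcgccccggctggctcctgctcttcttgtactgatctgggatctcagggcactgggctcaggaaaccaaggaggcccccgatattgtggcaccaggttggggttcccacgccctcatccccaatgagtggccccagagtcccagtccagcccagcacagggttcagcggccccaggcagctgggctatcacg
Cd36: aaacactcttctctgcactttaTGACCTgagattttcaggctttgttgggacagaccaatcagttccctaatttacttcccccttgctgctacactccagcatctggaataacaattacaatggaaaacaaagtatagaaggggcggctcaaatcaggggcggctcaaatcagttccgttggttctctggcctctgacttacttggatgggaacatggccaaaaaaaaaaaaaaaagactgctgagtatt
Abca1: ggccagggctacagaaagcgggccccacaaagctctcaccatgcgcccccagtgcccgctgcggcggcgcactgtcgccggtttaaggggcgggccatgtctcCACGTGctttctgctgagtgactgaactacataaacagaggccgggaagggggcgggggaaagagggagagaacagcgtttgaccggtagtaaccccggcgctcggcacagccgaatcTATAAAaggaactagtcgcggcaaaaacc

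AGGTCA was found upstream of *Plin2*, *Cd36* and *Pparg*, in 4 of the 11 member windows, and in 14.0% of the 32851 windows of 250 bases in the table. CACGTG was held by the *Abca1* window and by 6.02% of all windows. TATAAA was held by windows of *Abca1*, *Apoe* and *Pparg* and by 12.4% of all. The paired forms DR1 and DR4, direct repeats of AGGTCA with 1 and with 4 bases between, which overlap the single AGGTCA by construction, were not found in the 11 member windows and were held by 0.0335% and 0.0152% of all windows. These are matches of letters and not measured sites of binding.

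In monocyte/macrophage-like cells, 7 of the 10 members were at least 2-fold higher on day 3 than on day 1, and none was at least 2-fold lower. The 7 were *Fabp4*, *Fabp5*, *Lpl*, *Apoe*, *Abcg1*, *Pparg* and *Nr1h3*. *Abca1* was 1.91-fold higher, while *Cd36* and *Plin2* stayed within 1.29-fold of their day 1 level. Among all 7461 genes with at least 500 UMIs in these cells, 18.9% were at least 2-fold higher and 5.95% at least 2-fold lower. The median log2 ratio of day 3 over day 1 was 1.49 for the members and 0.33 for all genes tested. With the ratios centred on that 0.33, 5 members were at least 2-fold higher, since *Fabp5* and *Pparg* fell just under, and no direction changed. Centring moved the split over all genes from 1410 higher and 444 lower to 888 higher and 698 lower. Different clusters held the class on the days, those led by *Ccl24* and *Serpinb2* (1133 cells) and by *Ppbp* and *Pf4* (1043 cells) on day 1, and those led by *Fcrls* and *Cx3cr1* (1184 cells) and by *Gpnmb* and *Syngr1* (615 cells) on day 3. Marker levels of the class moved with the days as well. The 8 macrophage markers summed to 4117 CPM on day 1 and 8137 CPM on day 3, the 6 monocyte markers to 2273 and 572 CPM, the 6 neutrophil markers to 887 and 94.5 CPM and the 6 fibroblast/FAP markers to 24.1 and 105 CPM. Their part in the ratios of the members was not tested.

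**Figure D1:**
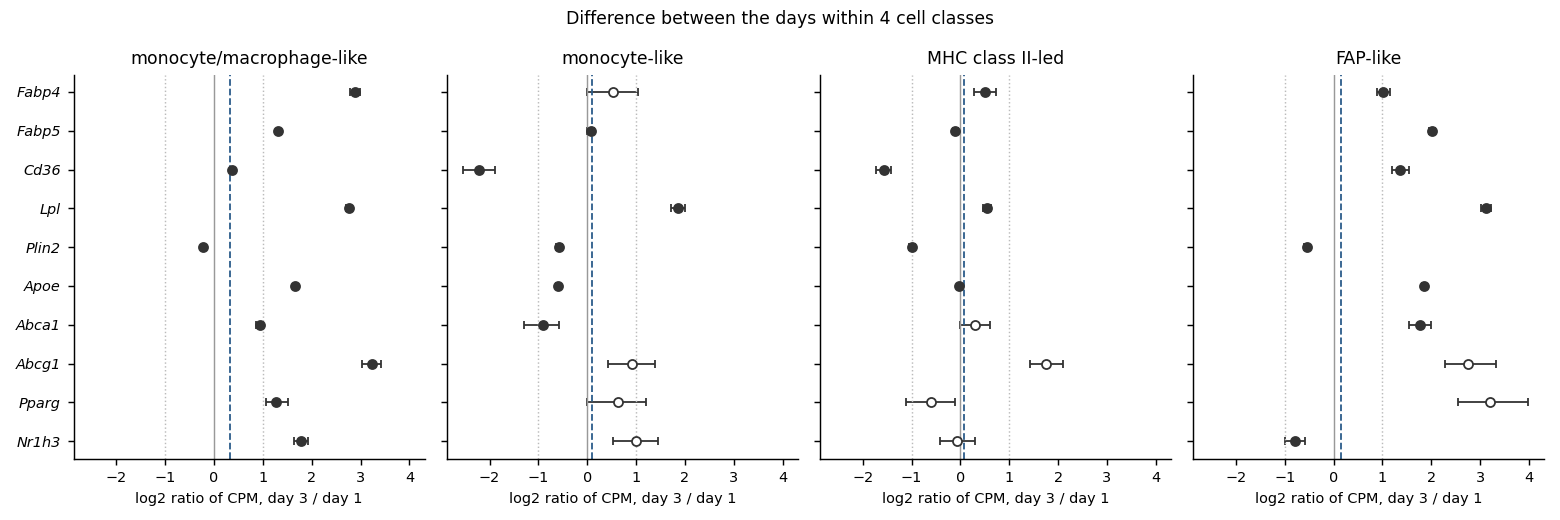
Log2 ratio of CPM (UMIs per 1000000), day 3 over day 1, of each member in 4 cell classes. Points are the ratio of 1 library per day, bars its exact binomial 95% interval, open points members with fewer than 500 UMIs, the dashed line the median of all genes tested and dotted lines 2-fold. In monocyte/macrophage-like cells all members but *Plin2* lie right of 0, and *Cd36* lies left of it in monocyte-like and MHC class II-led cells.

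The fatty acid carriers stood at 28.1 CPM (UMIs per 1000000 UMIs of the class; 95% CI 26.1 to 30.1) for *Fabp4* on day 1 and at 207 CPM (202 to 212) on day 3, a log2 ratio of 2.88 (2.77 to 2.99). Intervals here and below are exact Poisson for CPM and exact binomial for ratios, and cover counting error only. *Fabp4* ranked 195 of 7461 genes by its ratio. *Fabp5*, the carrier also found in epidermis and immune cells, stood at 1707 CPM (1691 to 1722) on day 1 and at 4243 CPM (4222 to 4265) on day 3. Its log2 ratio was 1.31 (1.30 to 1.33), and 12.1% of the genes tested had a larger one. Both carriers were thus higher on day 3, *Fabp4* by the larger ratio.

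The receptor and the lipase parted. *Cd36* stood at 349.6 CPM (343 to 357) on day 1 and at 451 CPM (444 to 458) on day 3, and its log2 ratio of 0.37 (0.33 to 0.40) lay close to the median of all genes. *Lpl* stood at 117 CPM (113 to 121) and at 791 CPM (781 to 800.0). With a log2 ratio of 2.76 (2.71 to 2.81), *Lpl* ranked 208 of 7461. *Plin2*, the droplet coat, was the only member with a lower level on day 3, 1573 CPM (1558 to 1588) against 1349.6 CPM (1337 to 1362), a log2 ratio of -0.22 (-0.24 to -0.20). Its UMIs were in nearly every cell on both days, in 99.3% of cells on day 1 and 99.1% on day 3 before thinning.

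*Apoe* stood at 3288 CPM (3266 to 3309) on day 1 and at 10432 CPM (10398 to 10466) on day 3, which is a log2 ratio of 1.67 (1.66 to 1.68). The transporters of cholesterol differed in size of change. *Abca1*, which loads lipid-poor acceptors, stood at 83.3 CPM (79.9 to 86.7) and 159 CPM (155 to 164). *Abcg1*, which passes sterol to mature lipoprotein, stood at 8.65 CPM (7.59 to 9.82) and 81.1 CPM (78.1 to 84.2). The log2 ratio of *Abca1* was 0.94 (0.87 to 1.01), and that of *Abcg1* was 3.23 (3.04 to 3.43), the largest of the 10. Only 2.20% of the genes tested had a larger ratio than *Abcg1*.

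Both nuclear receptors were higher on day 3, at low levels. *Pparg* stood at 7.995 CPM (6.97 to 9.12) on day 1, from 220 UMIs, and at 19.4 CPM (17.9 to 20.9) on day 3, from 669 UMIs. *Nr1h3* stood at 17.8 CPM (16.3 to 19.5), from 490 UMIs, and at 61.5 CPM (58.9 to 64.2), from 2124 UMIs. The log2 ratios were 1.28 (1.06 to 1.504) for *Pparg* and 1.79 (1.65 to 1.93) for *Nr1h3*. Their intervals do not overlap, and both lie above the median of all genes.

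Ambient RNA, read from barcodes with at most 100 UMIs, made up an estimated 2.15% of the UMIs of monocyte/macrophage-like cells on day 1 and 1.91% on day 3. Its largest expected part in a member was that of *Fabp4*, 1.66 of 28.1 CPM on day 1 and 5.20 of 207 CPM on day 3. Of the adipocyte markers, *Cidec* and *Lep* had no UMI in these cells on either day, which allows up to 0.109 CPM on day 1 and 0.0869 CPM on day 3. The 5 adipocyte markers summed to 0.509 CPM on day 1 and to 0.116 CPM on day 3. The 6 endothelial markers, of a cell type with high *Fabp4*, summed to 5.31 and 6.40 CPM.

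The clusters of a day differed among themselves. On day 3, 9 of the 10 members were higher in the cells led by *Gpnmb* and *Syngr1* than in those led by *Fcrls* and *Cx3cr1* with intervals apart, and *Pparg* was at 21.7 against 18.0 CPM with intervals that overlap. *Apoe* stood at 16231 against 7018 CPM, *Fabp5* at 7266 against 2435.5 CPM and *Fabp4* at 358 against 114 CPM. *Apoe* and *Fabp5* were among the leading genes of the first of these clusters, so their contrast there is a description. *Lpl* differed less, with 896 against 717 CPM. On day 1, the cells led by *Ppbp* and *Pf4* had the higher *Fabp4* (44.9 against 13.4 CPM), *Fabp5* (2255 against 1218 CPM), *Plin2* (1855 against 1308 CPM) and *Nr1h3* (24.3 against 11.97 CPM) than the cells led by *Ccl24* and *Serpinb2*. *Abca1* went the other way, with 77.2 against 88.3 CPM. *Fabp5* in the *Ppbp*-led cells of day 1 (2255 CPM) lay close under that in the *Fcrls*-led cells of day 3 (2435.5 CPM).

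**Figure D2:**
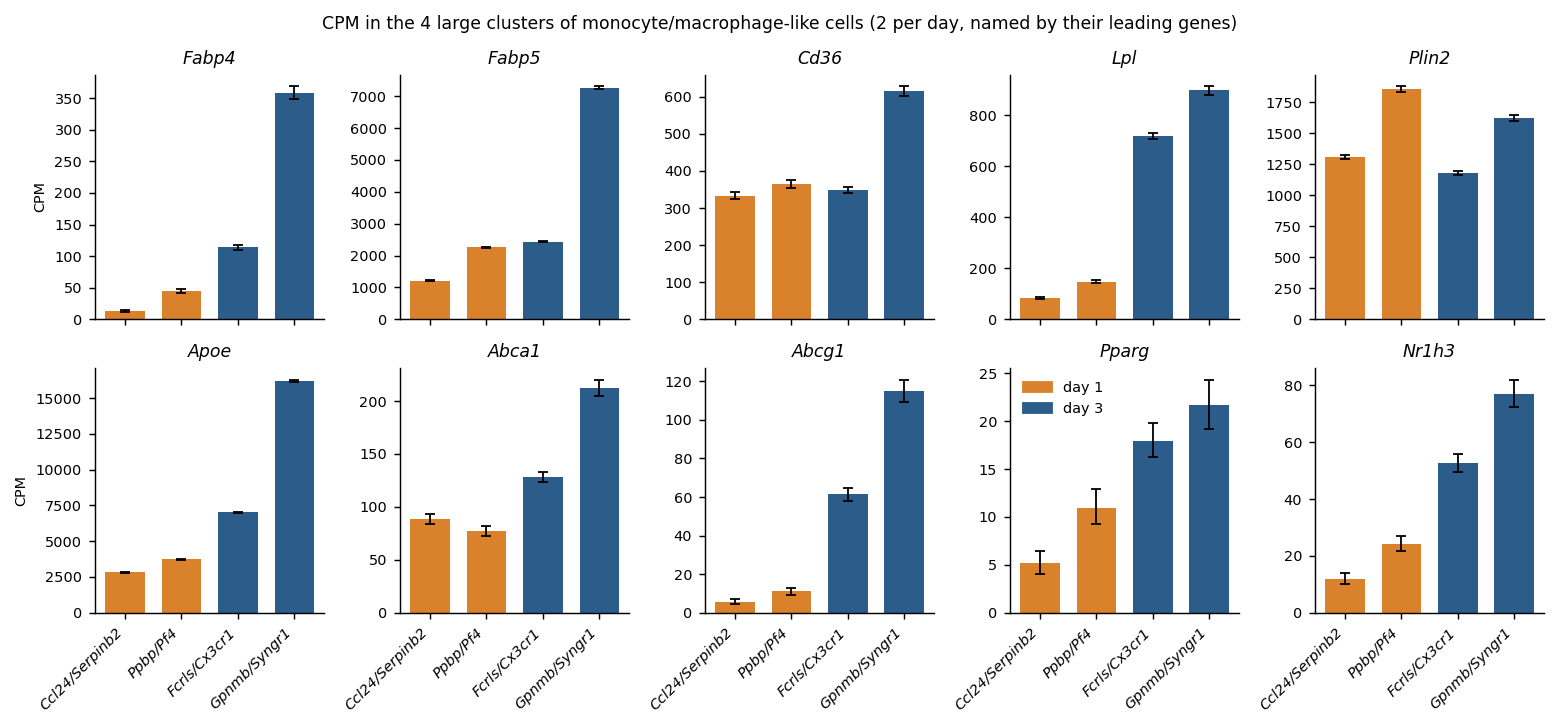
CPM of each member in the 4 large clusters of monocyte/macrophage-like cells, named by their 2 leading genes. Bars are summed CPM in 1 library, error bars the exact Poisson 95% interval, colors the day. *Fabp4*, *Fabp5*, *Lpl*, *Apoe*, *Abcg1* and *Nr1h3* are among the members higher in both day 3 clusters than in both day 1 clusters. *Plin2* is highest in the day 1 cluster led by *Ppbp* and *Pf4*.

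Shares of cells with a UMI were read after each cell was thinned to 1000 UMIs, since the median depth of the class was 11757 UMIs on day 1 and 17890 on day 3. The share with *Fabp4* went from 1.31% (Clopper-Pearson 95% CI 0.882 to 1.88) to 10.9% (9.51 to 12.4). *Lpl* went from 7.34% (6.29 to 8.51) to 36.5% (34.2 to 38.7), and *Fabp5* from 41.0% (38.9 to 43.0) to 68.0% (65.8 to 70.1). *Apoe* was found in 77.8% and 87.9% of cells, so that its higher level on day 3 came with a small gain in cells. For *Abcg1* the share went from 1.27% to 8.43%, for *Abca1* from 8.65% to 13.5%, for *Nr1h3* from 1.59% to 6.06% and for *Pparg* from 0.589% to 1.93%. *Cd36* was found in 23.1% and 27.1%, and *Plin2* in 70.7% and 67.1%. At the same 1000 UMIs, satellite cell/myoblast-like cells of day 3 had *Apoe* in 6.90%, *Fabp4* in 0.493%, *Cd36* in 0.493% and *Lpl* in 6.40% of cells. Without thinning, *Fabp4* was in 7.07% and 39.4% of the monocyte/macrophage-like cells and *Lpl* in 29.4% and 85.0%.

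How evenly members were spread over the cells of the class was read without thinning. The 10% of cells with the most UMIs of *Fabp4* held all of its UMIs on day 1 and 72.6% on day 3. The first value was fixed, since fewer than 10% of cells had a *Fabp4* UMI on day 1. For *Lpl* such cells held 73.3% and 45.9%, and for *Fabp5* 59.8% and 42.2%. *Plin2* had the lowest values, 27.6% and 27.8%. These values depend on level and depth, whose part in the differences between members and days was not tested. Per cell, *Apoe* had a median of 2406 CPM with quartiles of 1014 and 4776 CPM on day 1, and a median of 7288 CPM with quartiles of 2505 and 15338 CPM on day 3. *Fabp5* had a median of 354 CPM on day 1, with quartiles of 0 and 1819.9 CPM, and of 2077 CPM on day 3, with quartiles of 422 and 6020.5 CPM. The interquartile ranges of the days overlap for both genes.

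Within the class, the carriers went together in the same cells. The split that follows pools the clusters of a day, and both carriers differed between those clusters as well. The part of the cluster in it was not tested. At 3000 UMIs per cell on day 3, cells with a *Fabp4* UMI (386 cells) had *Fabp5* in 97.7% (95.6 to 98.9) and cells without one (1405 cells) in 78.1% (75.9 to 80.3). *Cd36* was in 69.2% (64.3 to 73.7) against 47.5% (44.9 to 50.2), *Lpl* in 75.1% against 57.7% and *Abcg1* in 29.5% against 17.0%. *Fabp5* stood at 7803 CPM in the cells with *Fabp4* and at 2772 CPM in the others, while *Apoe* was close between them, at 11444 and 11150 CPM. On day 1 only 70 cells had a *Fabp4* UMI at this depth, and *Fabp5* stood at 5809.5 CPM in them against 1489 CPM in the other 2094 cells. The share with *Lpl* in cells without an *Apoe* UMI on day 3 was 71.3% of 122 cells, against 60.7% of the 1669 cells with one, the reverse of the order seen for the split by *Fabp4*, although the intervals (62.4 to 79.1 and 58.3 to 63.0) overlap. *Abca1*, in contrast, was in 9.02% (4.59 to 15.6) of the cells without *Apoe* and in 33.3% (31.1 to 35.6) of those with it.

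**Figure D3:**
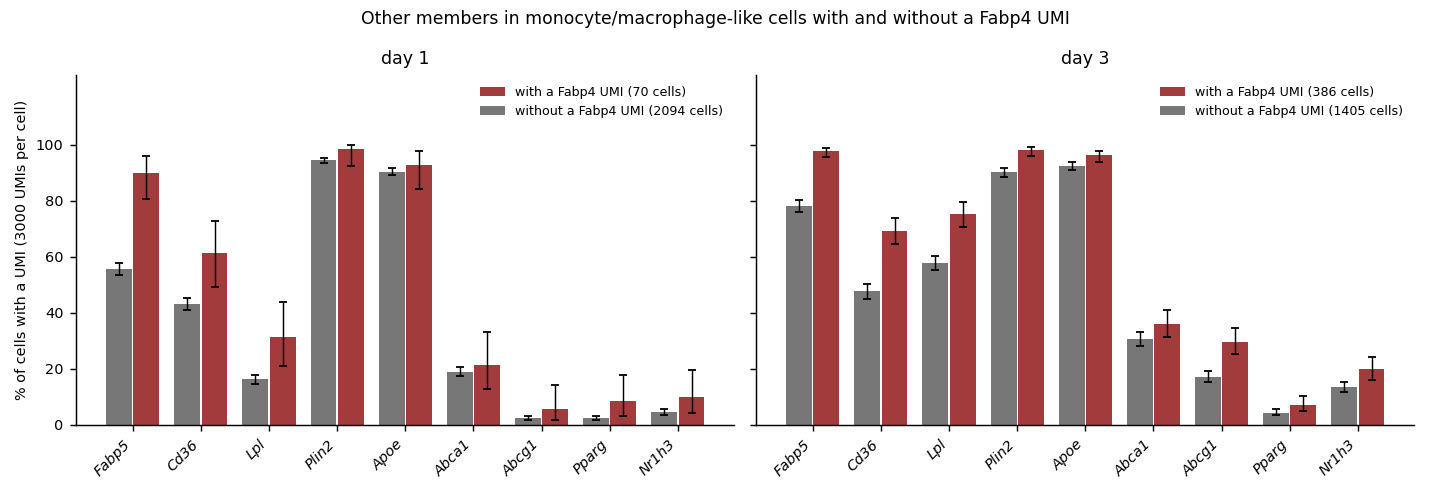
Share of monocyte/macrophage-like cells with a UMI of each other member, in cells with and without a *Fabp4* UMI, on each day, with every cell thinned to 3000 UMIs. Bars are shares of cells in 1 library and error bars Clopper-Pearson 95% intervals. On day 3, 97.7% of cells with *Fabp4* had *Fabp5*, against 78.1% of the others.

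By phase calls on day 3, *Apoe* stood at 14663 CPM in the 928 monocyte/macrophage-like cells called G1, at 7328 CPM in the 634 called S and at 6637 CPM in the 254 called G2M. *Fabp5* followed the same order with 5311, 3522 and 3157 CPM, whereas *Lpl* was highest in cells called S with 885 CPM against 772 and 641 CPM. *Cd36* differed little, with 469, 433 and 445 CPM. The cells called S and G2M had more UMIs, with medians of 19648.5 and 23627.5 against 15686.5. *Apoe* and *Fabp5* also differed between the clusters of day 3, and the phases were not read within clusters. The part of cluster, depth and ambient RNA in these values was not tested.

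Across the classes, the highest CPM was in monocyte/macrophage-like cells on day 3 for all 10 members among the classes with at least 50 cells, although the interval of *Pparg* there overlaps that of the interferon-led cells. On day 1 that held for *Fabp5*, *Plin2*, *Apoe* and *Abca1*, and for *Cd36*, whose 349.6 CPM was not apart from the 342 CPM (303 to 384) of endothelial-like cells. The others were highest elsewhere. *Fabp4* was highest in endothelial-like cells of day 1, which use it to move fatty acids across capillaries, with 2674 CPM (2565 to 2787). The 24 endothelial-like cells of day 3, under the minimum, stood at 7735 CPM of *Fabp4* and 816 CPM of *Cd36*. *Pparg* was highest in endothelial-like cells too, at 29.7 CPM (19.2 to 43.8), with an interval that overlaps the 16.4 CPM (13.3 to 19.9) of the MHC class II-led cells. *Lpl* was highest in summed CPM in MHC class II-led cells of day 1, at 332 CPM (318 to 347). It stood at 142 CPM in endothelial-like and 117 CPM in monocyte/macrophage-like cells. Per cell, the median of *Lpl* was 0 CPM in each of these classes on day 1. The upper quartile was 37.0 CPM in MHC class II-led, 96.8 CPM in endothelial-like and 78.1 CPM in monocyte/macrophage-like cells. *Nr1h3* was highest in fibroblast/FAP-like cells, at 24.2 CPM (22.0 to 26.5), and not apart from the 24.1 CPM of the MHC class II-led cells. *Abcg1* was at 17.5 CPM (14.1 to 21.6) in neutrophil-like, 16.6 CPM (from 5 UMIs) in interferon-led and 16.4 CPM in MHC class II-led cells, 3 values that do not differ beyond counting error.

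**Figure D4:**
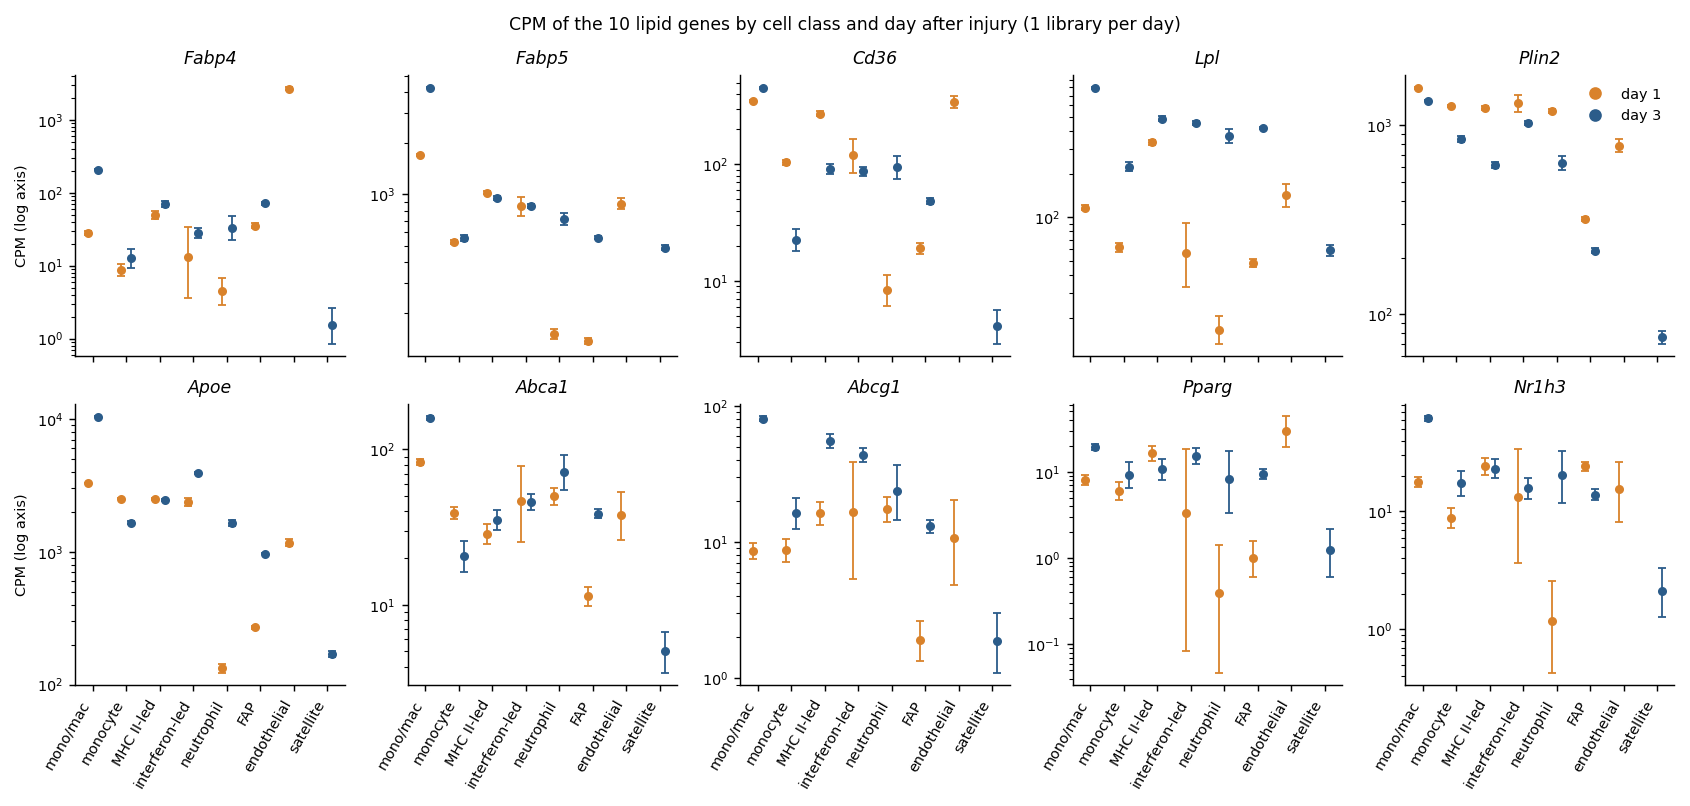
CPM of each member, on a log axis, in each cell class with at least 50 cells on a day, on day 1 and day 3. Points are summed CPM in 1 library and bars the exact Poisson 95% interval. On day 3 the monocyte/macrophage-like cells hold the highest point for each of the 10 members, and on day 1 *Fabp4* peaks in endothelial-like cells at 2674 CPM.

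The share of each member's UMIs held by the class also differed between the days. On day 3, monocyte/macrophage-like cells made up 39.2% of the sorted cells kept and held between 60.5% of the *Pparg* UMIs and 85.7% of the *Cd36* UMIs. On day 1 they made up 32.8% of the cells kept and held from 18.7% of the *Fabp4* UMIs to 73.3% of the *Fabp5* UMIs. The 82 endothelial-like cells of day 1 held 54.4% of the *Fabp4* UMIs. *Nr1h3* UMIs of day 1 were split between monocyte/macrophage-like cells with 40.0% and fibroblast/FAP-like cells with 37.2%. The classes differed in depth, so shares of UMIs cannot be read against shares of cells. On day 1, monocyte/macrophage-like cells had a median of 11757 UMIs and summed to 27516626 UMIs of all genes. Fibroblast/FAP-like cells had a median of 27672.5 and summed to 18845934 UMIs.

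Monocyte-like cells differed between the days in other members. Of the 6 members with at least 500 UMIs there, *Lpl* was at least 2-fold higher on day 3 and *Cd36* at least 2-fold lower, where 4.04% and 2.87% of all 3586 genes tested were. *Lpl* stood at 62.1 CPM (57.7 to 66.7) and 225 CPM (210.2 to 241). *Cd36* stood at 104 CPM (98.5 to 110) and 22.5 CPM (17.9 to 27.8), a log2 ratio of -2.21 (-2.55 to -1.90). The class lay mainly in a cluster led by *Ifitm6* and *Chil3* on day 1 (1042 cells) and in another on day 3. Within the latter, led by *Plac8* and *Itgal*, which had 148 and 380 cells on the days, the log2 ratio of *Cd36* was -2.63 (-3.06 to -2.23) and that of *Lpl* 1.62 (1.30 to 1.97). *Apoe* stood at 2514 and 1656 CPM, *Plin2* at 1265 and 846 CPM and *Abca1* at 39.0 and 20.6 CPM. In summed CPM of the class as a whole, all were lower on day 3 by less than 2-fold. Per cell, the median of *Apoe* differed more, at 1708 and 518 CPM. That of *Plin2* was 1024 and 662 CPM, and that of *Abca1* was 0 CPM on both days. Within the cluster led by *Plac8* and *Itgal*, the log2 ratio was -1.08 (-1.59 to -0.56) for *Abca1*, past 2-fold, -0.20 (-0.30 to -0.10) for *Plin2* and -0.65 (-0.71 to -0.59) for *Apoe*. *Fabp5* stood at 527 and 556 CPM in the class and at 373 and 521 CPM within that cluster, a log2 ratio of 0.48 (0.33 to 0.64) there. *Fabp4*, *Abcg1*, *Pparg* and *Nr1h3* had fewer than 500 UMIs and stood at 6.06 to 8.79 CPM on day 1 and at 9.25 to 17.4 CPM on day 3. Within the cluster the 95% intervals of the log2 ratios of these 4 members held 0, and *Fabp4*, at 22.3 and 13.6 CPM, and *Abcg1*, at 17.4 and 17.2 CPM, were not higher on day 3.

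The MHC class II-led cells lay in 1 cluster on both days. Of 6 members with at least 500 UMIs, none was at least 2-fold higher on day 3 and *Cd36* was at least 2-fold lower, against 6.6% and 5.26% of 2925 genes tested. *Cd36* stood at 272 CPM (259.6 to 286) and 91.5 CPM (83.4 to 100.2). *Plin2* stood at 1231 and 616 CPM, just short of 2-fold lower with a log2 ratio of -0.999 (-1.06 to -0.94). The neutrophil markers summed in these cells to 1099 CPM on day 1 and to 45.6 CPM on day 3, and neutrophil-like cells of day 1 had *Plin2* at 1191 CPM. The part of neutrophil RNA in the ratio of *Plin2* was not tested. In summed CPM, *Apoe*, at 2479 and 2441, and *Fabp5*, at 1026 and 956, were nearly level. Their levels per cell were not. The median of *Apoe* per cell was 1518 CPM on day 1 and 126 CPM on day 3, while its highest cell stood at 24792 and 45680 CPM. The median of *Fabp5* per cell was 64.0 CPM on day 1 and 0 CPM on day 3. *Lpl*, already high in summed CPM on day 1, stood at 332 and 485 CPM. Its median per cell was 0 CPM on both days, with upper quartiles of 37.0 and 185 CPM. The sums of *Lpl* thus rested on a minority of the cells. *Abcg1*, under 500 UMIs, stood at 16.4 CPM (13.3 to 19.9) and 55.3 CPM (49.1 to 62.2). *Fabp4* stood at 49.6 and 69.8 CPM.

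In the interferon-led cells, 575 of day 3 and 52 of day 1, *Lpl* stood at 452 CPM (436 to 469.7) on day 3 against 56.6 CPM (33.0 to 90.6) on day 1. *Apoe* stood at 3904 against 2376 CPM. The summed CPM of *Fabp5*, at 853 and 852, did not differ beyond counting error. Its levels per cell did differ, with a median of 151 CPM on day 3 and 0 CPM on day 1. The mean of *Fabp5* per cell was 752 CPM on day 3 and 403 CPM on day 1. The day 1 sum of *Fabp5* thus rested on a minority of the cells. The median of *Apoe* per cell was 2182 CPM on day 3 and 0 CPM on day 1, and that of *Lpl* was 171 and 0 CPM. The 52 cells of day 1 had a median of 2436.5 UMIs against 9928 on day 3, and their neutrophil markers summed to 15487 CPM against 802 CPM, while the macrophage markers summed to 4713 and 6327 CPM. The part of neutrophil RNA and of depth in these differences was not tested.

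In fibroblast/FAP-like cells 8 members had at least 500 UMIs. Of these, *Fabp4*, *Fabp5*, *Cd36*, *Lpl*, *Apoe* and *Abca1* were at least 2-fold higher on day 3 and none was at least 2-fold lower, against 15.9% and 8.01% of 7687 genes tested. *Lpl* had the largest ratio, with 47.9 CPM (44.8 to 51.1) and 417 CPM (409 to 425), a log2 ratio of 3.12 (3.02 to 3.22). *Fabp4* stood at 35.3 and 71.3 CPM, and *Nr1h3*, lower on day 3, at 24.2 and 13.9 CPM. Macrophage marker RNA moved with these values. The 8 monocyte/macrophage markers summed in fibroblast/FAP-like cells to 7.04% of their level in monocyte/macrophage-like cells on day 1 and to 11.5% on day 3, and single markers ranged from 9.18% to 20.4% on day 3. *Apoe* was at 9.30%, *Cd36* at 10.8%, *Fabp5* at 13.1%, *Plin2* at 16.1% and *Abcg1* at 16.2% of the monocyte/macrophage-like level on day 3, within that range. *Lpl* at 52.8%, *Pparg* at 48.8%, *Fabp4* at 34.5%, *Abca1* at 24.3% and *Nr1h3* at 22.6% were above it. On day 1, *Nr1h3* at 136% and *Fabp4* at 126% of the monocyte/macrophage-like level, and *Lpl* at 41.1%, stood far above the markers, which ranged from 5.82% to 10.1%. The part of macrophage RNA in the difference between the days was not tested. Here too different clusters held the class, led by *Cxcl5* and *Prg4* on day 1 and by *Sfrp2* and *Col3a1* on day 3.

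Neutrophil-like cells had *Plin2* at 1191 CPM (1161 to 1221) on day 1 and 632 CPM (579 to 688) on day 3. *Plin2*, *Abca1* (49.9 and 71.4 CPM) and *Abcg1* (17.5 and 23.8 CPM) were on day 1 at 103%, 99.97% and 201% of their level in the ambient profile. The remaining 7 members were on day 1 at 5.79% to 20.9% of their ambient level. On day 3, *Apoe* stood at 1657 CPM in place of 133 CPM, and *Lpl* at 368 in place of 16.6 CPM. In the same 255 cells, whose median depth was 1663 UMIs, the macrophage markers stood at 38.6% of their level in monocyte/macrophage-like cells, against 6.54% on day 1. *Apoe* there was at 15.9% and *Lpl* at 46.5% of the monocyte/macrophage-like level, and the 10 members at 12.3% to 133% of their ambient level. The part of macrophage RNA in these values was not tested. Satellite cell/myoblast-like cells of day 3 were low in 9 members, with *Apoe* at 170.2 CPM and *Cd36* at 4.12 CPM, and had *Fabp5* at 487 CPM (473 to 502), which is 11.5% of the monocyte/macrophage-like level where the macrophage markers were at 2.37%.

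Other lipid genes, listed by function, were read in monocyte/macrophage-like cells, where 26.7% of 10256 genes with at least 100 UMIs were at least 2-fold higher on day 3, 5.72% at least 2-fold lower, and the median log2 ratio was 0.44. Among 10 counted genes of lipoprotein and fatty acid uptake, 4 were at least 2-fold higher and 2 lower, with a median of 0.17. *Slc27a1*, a fatty acid transporter, stood at 16.2 and 146 CPM and the carrier *Fabp3* at 6.43 and 47.2 CPM. The scavenger receptor *Olr1* stood at 46.4 and 10.9 CPM. This group thus held genes far to both sides. *Slc27a1* and *Fabp3* were also among the leading genes of the day 3 clusters, led by *Fcrls* and by *Gpnmb*.

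Lysosomal lipid handling held ratios close to each other with 1 exception. Of 8 genes, 1 was at least 2-fold higher and none lower, with a median of 0.64. The exception was *Lipa*, the lysosomal acid lipase, at 64.0 and 363 CPM, with a log2 ratio of 2.50 (2.43 to 2.58). *Scarb2* had the next largest ratio (0.79), and *Lamp2* (0.38) and *Asah1* (0.56) the smallest.

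Droplet storage and lipolysis was the list with the lowest median, -0.55 over 11 counted genes, of which 1 was at least 2-fold higher and 4 lower. *G0s2*, an inhibitor of the lipase of droplets, stood at 40.6 and 1.97 CPM, and *Hilpda*, another such inhibitor, at 776 and 134 CPM. The acyltransferases *Dgat1* (36.9 and 17.8 CPM) and *Dgat2* (8.07 and 3.45 CPM), which make triglyceride, completed the 4. *Plin3* stood at 32.7 and 85.1 CPM, and *Soat1*, which esterifies cholesterol, at 128 and 221 CPM. *Plin2* had a log2 ratio below 0 as well, though a much smaller one than *G0s2* or *Hilpda*. *G0s2* leads neutrophil-like clusters, whose markers were higher in monocyte/macrophage-like cells on day 1. Their part in the ratio of *G0s2* was not tested.

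Sterol efflux and lipid transfer had a median of 1.00 over 9 counted genes, with 4 at least 2-fold higher and 1 lower. *Pltp*, the phospholipid transfer protein, stood at 21.0 and 142 CPM and *Apoc4* at 0.727 and 3.19 CPM, from 20 and 110 UMIs. *Apoc1* stood at 10.3 and 4.43 CPM and *Apoc2* at 214 and 194 CPM. The small apolipoprotein genes thus lay on both sides of 0, *Apoc4* with *Apoe* and *Apoc1* and *Apoc2* opposite to it.

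Fatty acid oxidation had 3 of 10 genes at least 2-fold higher and none lower, with a median of 0.66. *Cpt2* stood at 2.51 and 7.68 CPM and *Acaa2* at 22.7 and 53.9 CPM, while the carnitine carrier *Slc25a20* stood at 32.3 and 22.97 CPM and *Acadvl* at 30.3 and 31.4 CPM. Of 9 counted nuclear receptors and partners, 3 were at least 2-fold higher, none lower, and the median was 0.21. *Ppargc1b* stood at 0.581 and 2.69 CPM, from 16 and 93 UMIs, and *Rxra*, the partner of both PPARγ and LXRα, at 9.38 and 23.9 CPM. *Ppard* stood at 27.2 and 17.0 CPM and *Nr1h2*, the other LXR gene, at 39.6 and 35.2 CPM. *Ppara* had no UMI on either day in these cells, which allows up to 0.109 and 0.0869 CPM.

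**Figure D5:**
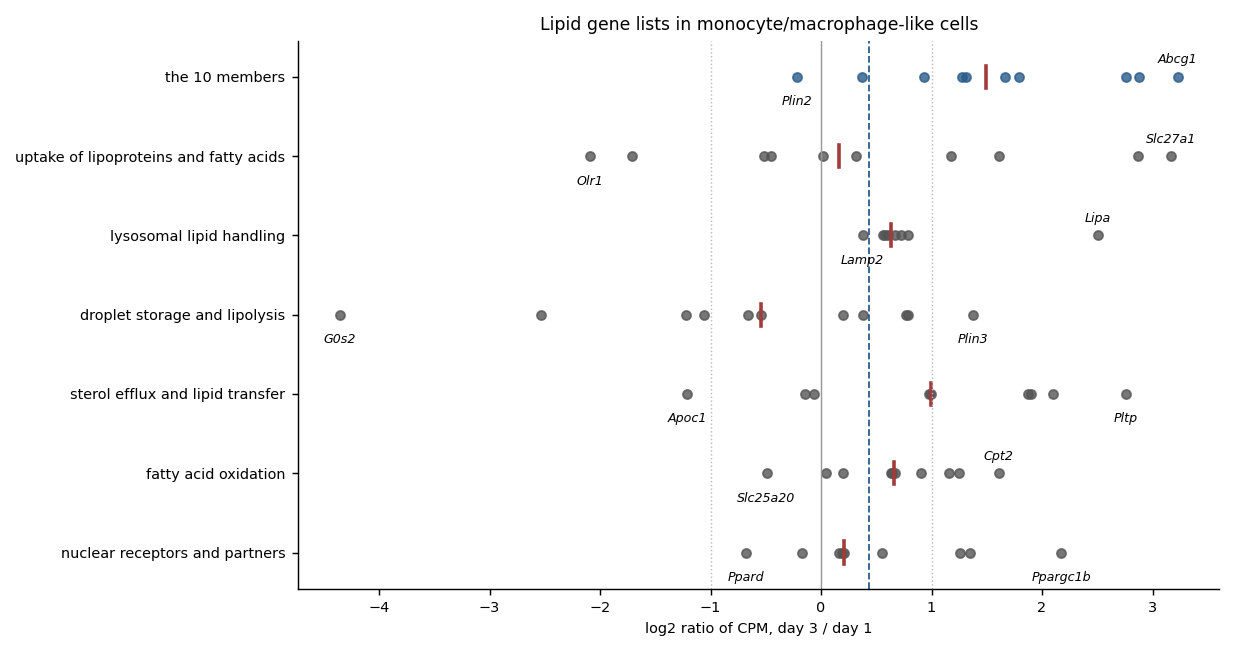
Log2 ratio of CPM, day 3 over day 1, of the 10 members and of the counted genes of 6 further lipid lists in monocyte/macrophage-like cells of 1 library per day. Each point is a gene, red bars are medians, the dashed line the median of all genes with at least 100 UMIs (0.44), dotted lines 2-fold, and the lowest and highest gene of each list are named. Droplet storage and lipolysis has the lowest median, -0.55, with *G0s2* far to the left at -4.35.

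The genes most like each member were read as Pearson correlations of log2(CPM + 10) over 10 groups, the named classes by day with at least 50 cells. The groups share 2 libraries and differ in depth, so r is a description with no p. The 3 nearest genes of each of the 10 members had r between 0.92 and 0.99. *Apoe* was nearest to *Lamp1* (0.99), *C3ar1* (0.98) and *Tmem106a* (0.98). *Abca1* was nearest to the lysosomal proteases *Ctsd* (0.97) and *Ctsb* (0.92) and to *Tmem8*, and *Abcg1* had *Tmem35b* (0.96) and *Tmem86a* (0.95) among its nearest. *Cd36* was nearest to *Snx3* (0.96), *Pf4* (0.95) and *Il7r* (0.94), and *Fabp5* to *Rnf128* (0.94), *Dync1i2* and *Tmem37*. *Pparg* was nearest to *Rab3gap2* (0.93), *Mertk* (0.92) and *Ggta1*, and *Nr1h3* to *Camk1* (0.95), *Xylt2* and *Scly*. *Lpl* was nearest to *Ptpra* (0.96), *Nostrin* and *Use1*, *Plin2* to *Arpc3* (0.99), *Fcgr3* and *Rab11a*, and *Fabp4* to *Ch25h* (0.98), *Swap70* and *Cog2*. No member was among the 3 nearest genes of another. Between members, r was highest for *Fabp4* with *Pparg* and for *Fabp5* with *Apoe*, both 0.87, and lowest for *Lpl* with *Plin2*, 0.09. *Fabp4* stood at 2674 CPM in endothelial-like cells of day 1 and at most at 207 CPM in the other groups. *Pparg* was highest in those endothelial-like cells too, at 29.7 CPM. The part of this group in the r of *Fabp4* was not tested.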

How the data were processed

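Both libraries, day 1 and day 3, were used. Per the labels and methods, cells were sorted on scatter to leave out dead cells and doublets, frozen, and run as 10x Genomics 3′ libraries. The submitters' processing notes name Cell Ranger 5.0.0 and mm10, while the matrix header names Cell Ranger 4. The deposited values are raw UMI counts for every listed barcode, summing to 74852240 and 102565783, with no call of cells. The 7367 and 6640 barcodes with the most UMIs were taken, with at least 1000 UMIs, 200 genes and at most 7.5% mitochondrial UMIs. Doublets were kept, since Scrublet's threshold marked 2 and 0 cells and had not worked. Clustering used SCTransform (Seurat 5.3.0, sctransform 0.4.2, R 4.3.3), 10 principal components and a resolution of 0.8. A cluster was named where at least 3 markers of a list were raised and no other list led. Ratios have 0.5 added to each count. Sums used numpy 2.4.6 and scipy 1.17.1 in Python 3.11.15, doublet scores scanpy 1.11.5, and annotation GENCODE M21. On simulated counts of 7461 genes, 95.3% of ratio intervals held the true value. These were Poisson counts, which the intervals assume, so this checks the calculation only. It leaves out spread between cells, mice and libraries. The members and lists were chosen with earlier results of these data known. All members, the 3 genes most like each, and the 2 highest and 2 lowest genes of each list are named, except a few that are not reported here; *Dgat1* and *Dgat2* were added after their values were seen, to complete a count.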

Additional observations from a re-analysis of the deposited data

Results flagged for a closer look

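Some members went opposite ways between the days in monocyte/macrophage-like cells and in another class, with both counting intervals leaving out a log2 ratio of 0. The differences between classes were not tested, since each day is 1 library. *Cd36* had a log2 ratio of day 3 over day 1 of 0.37 in monocyte/macrophage-like cells, of -2.21 (95% CI -2.55 to -1.90) in monocyte-like cells and of -1.57 (-1.73 to -1.43) in MHC class II-led cells. *Apoe* was at 1.67 in monocyte/macrophage-like and at -0.60 (-0.64 to -0.56) in monocyte-like cells. *Abca1* was at 0.94 and, in monocyte-like cells, at -0.91 (-1.29 to -0.57). *Fabp5* was at 1.31 and, in MHC class II-led cells, at -0.10 (-0.16 to -0.05), a small difference with a narrow interval because the gene has many UMIs. *Nr1h3* was at 1.79 and, in fibroblast/FAP-like cells, at -0.80 (-1.004 to -0.59). The MHC class II-led cells lay in 1 cluster on both days, and the other classes did not.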

How the results depend on the processing

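The count of members at least 2-fold higher on day 3 in monocyte/macrophage-like cells, 7 of 10, lay between 5 and 8 under 13 alternatives, and the count of members at least 2-fold lower was 0 in each. The higher count was 5 with centred ratios, 6 with 20 principal components, with each library clustered alone or with cells named by marker score, and 8 with doublets removed, a resolution of 0.4 or selection by *Adgre1* and *Fcgr1*. The log2 ratio of each member kept its sign in all 13. Of these values, 84 lay outside the counting interval of the reported ratio and 46 within it. *Fabp5*, *Pparg* and *Abca1* lay near 2-fold and crossed it in 3, 3 and 4 alternatives. Ranges over the alternatives were 2.32 to 3.02 for *Fabp4*, 2.03 to 2.81 for *Lpl* and 2.82 to 3.48 for *Abcg1*. They were 1.34 to 1.78 for *Apoe*, 0.04 to 0.57 for *Cd36* and -0.55 to -0.19 for *Plin2*. For *Fabp5* the range was 0.85 to 1.58, for *Abca1* 0.61 to 1.12, for *Pparg* 0.88 to 1.46 and for *Nr1h3* 1.35 to 1.92. One alternative, the 4 phagocyte classes pooled, was chosen after seeing the data and gave 7. Centring the ratios on the median over genes left 888 genes of 7461 at least 2-fold higher in place of 1410, and 698 lower in place of 444. The class with the highest CPM was the same in 199 values and another in 21, most often for *Cd36* on day 1, where endothelial-like cells led in 5 of 11 alternatives. Thinning to 3000 UMIs or not at all moved 247 shares beyond the interval of the reported value and left 33 within it. No paired analysis was possible because each day is 1 library of other mice. Differences between mice, library chemistry and day cannot be told apart, and members under 500 UMIs in a class have wide intervals.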
